A study of Homo sapiens with 36 samples.

Results

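The response of 1205LuTR-NR2F1 cells to combined BRAF and MEK inhibition was described while NR2F1 was induced. These cells are the BRAF-V600E human melanoma line 1205Lu carrying the Tet repressor and a doxycycline-inducible NR2F1 cDNA. All 6 libraries from this line with doxycycline (DOX) were taken by their labels out of 36 in the series: 3 treated with BRAFi + MEKi + DOX and 3 with DMSO + DOX. DOX was given at 100 ng/mL from 24 hours before the inhibitors in both groups. The inhibitors were the BRAF inhibitor PLX4720 at 1 uM and the MEK inhibitor PD0325901 at 35 nM for 72 hours, and DMSO was the vehicle. The 6 libraries of the same line without DOX (3 BRAFi + MEKi and 3 DMSO) served to show where the responses differed. By the paper's methods, cells were kept with DOX for 24 hours after seeding and then treated with or without it. The libraries called without DOX may therefore have had DOX in those 24 hours. The study states that in vitro replicates came from independent experiments. As both groups received DOX, the comparison gives the effect of the inhibitors in the presence of DOX. In the comparison with the cells without DOX, the effect of DOX itself and that of NR2F1 cannot be told apart, because no library of cells without the NR2F1 cDNA was analysed here.

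The BRAF-V600E kinase keeps MEK and then ERK active without a growth factor signal. Active ERK induces early transcription factors, D-type cyclins and its own inhibitors, the DUSP phosphatases and the Sprouty and SPRED proteins, so the mRNAs of these genes serve as a readout of ERK activity. Melanoma cells that survive BRAF and MEK inhibitors usually slow their cell cycle, and their lineage, metabolic and surface receptor genes change. NR2F1 (COUP-TFI) is an orphan nuclear receptor that has been linked to dormancy of disseminated tumor cells.

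The values are the deposited normalized expression values, which sum to between 28915500 and 34229400 per library over the 12 libraries of the line. Within a group, the libraries correlated across genes at r = 0.966 to 0.984. A pair of features of these libraries touches every result that follows. BRAFi + MEKi + DOX replicate 1 stood apart. Of 13755 genes with a mean of at least 30 over the 6 libraries, 368 lay over 4-fold from the log2 mean of the other libraries of its group. For replicates 2 and 3 the numbers were 90 and 99, where that mean includes replicate 1. Replicates 2 and 3 of both DOX groups lay close together: among genes with a mean of at least 1000, their median absolute log2 difference was 0.066 with DMSO + DOX and 0.089 with BRAFi + MEKi + DOX, while the other pairs within a group of this line ranged from 0.138 to 0.312. These differences were above the counting error of about 0.028 that would apply if the values were reads, which does not show that the libraries came from separate cultures. Whether they did was not tested, and if they share a culture the p-values that follow are too small. Counts are therefore also given without BRAFi + MEKi + DOX replicate 1 and with replicates 2 and 3 of both DOX groups averaged and counted as 1 library. The melanoma markers SOX10, S100B, PRAME, MCAM and CSPG4 were present in every library, whereas MLANA and TYR were listed at 0 and MITF was between 137 and 298 in these 6 libraries. Of 9 epithelial and keratinocyte markers, 7 were listed at 0, among them EPCAM, CDH1, KRT5 and TP63, while KRT10 was between 264 and 404 and KRT14, which did not pass the test, was between 1.30 and 22.2 with DMSO + DOX and between 20.8 and 142 with BRAFi + MEKi + DOX. The endothelial marker CDH5 and the leukocyte markers PTPRC and CD3E were listed at 0 in these 6 libraries, whereas fibroblast markers differed among themselves. DCN reached at most 14.7, and FAP, which did not pass the test, was between 198 and 1087 with DMSO + DOX and between 35.2 and 562 with BRAFi + MEKi + DOX. PDGFRA fell from between 6104 and 6874 to between 2218 and 3426, and PDGFRB rose from between 301 and 354 to between 1081 and 2162. The endothelial genes VWF and KDR rose to at most 75.5 and 189. KDR did not pass the test with replicates 2 and 3 averaged, nor in several other alternatives. The macrophage gene CD68 fell from between 1760.1 and 2245 to between 545 and 608. Their part in the results was not tested.

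To determine what the inhibitors changed with NR2F1 induced, 22144 genes were tested with limma on log2(value + 1), and a gene was called at a Benjamini-Hochberg adjusted p below 0.05. A total of 6252 genes (28.2% of those tested) were called, of which 3335 (15.1%) were higher and 2917 (13.2%) lower with BRAFi + MEKi + DOX than with DMSO + DOX. Of the called genes, 938 were higher by more than 2 and 508 were lower by more than 2 on the log2 scale. Without BRAFi + MEKi + DOX replicate 1, 3305 genes were higher and 3048 lower. With replicates 2 and 3 averaged, 1664 were higher and 1497 lower. The median log2 fold change over all genes was 0.12 as deposited, 0.22 after rescaling libraries to the same total and 0.03 after quantile normalization, and the share of higher genes among those called was 53.3%, 62.8% and 50.8%, respectively. Counts of rising and falling genes in the lists that follow stand against these shares of 15.1% and 13.2%. The libraries are of bulk RNA, in which fewer cells of a kind and less RNA per cell cannot be told apart.

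Most genes of ERK output and feedback fell with inhibitors. Of 26 genes of ERK output and feedback, 23 fell and 0 rose, against 13.2% of all genes that fell, and the median log2 fold change of the list was -3.09 against 0.12 for all genes. The libraries of the groups did not overlap at any of the 26 genes, as they did not at 9184 of all genes (41.5%). SPRY4, a feedback inhibitor of receptor signaling to ERK, was 10506, 15278 and 15273 with DMSO + DOX and 162, 76.6 and 64.9 with BRAFi + MEKi + DOX. The library with the highest value among the treated was replicate 1, still far below each DMSO + DOX library, and the log2 fold change was -7.16 (standard error 0.30, adjusted p = 9.9e-09). The ETS family transcription factor gene ETV4 was 1871, 2155 and 2292 with DMSO + DOX and 20.2, 7.73 and 15.7 with BRAFi + MEKi + DOX. Its log2 fold change was -7.17 (standard error 0.32, adjusted p = 1.8e-08), and ETV5, which belongs to the same PEA3 subfamily, changed by -5.11 (standard error 0.33, adjusted p = 2.3e-07). The mRNA of DUSP6, the cytoplasmic phosphatase of ERK, was 3409, 2933 and 3203 with DMSO + DOX and 74.6, 617 and 710.1 with BRAFi + MEKi + DOX. Replicate 1 was the lowest of these libraries, replicates 2 and 3 kept a higher level, and the log2 fold change was -3.31 (standard error 0.68, adjusted p = 0.0028). The nuclear phosphatase gene DUSP5 fell by 4.93 (standard error 0.35, adjusted p = 7.0e-07) and SPRY2 fell by 3.10 (standard error 0.22, adjusted p = 8.3e-07). The immediate early gene EGR1 fell by 4.06 (standard error 0.34, adjusted p = 2.9e-06), the AP-1 subunit gene FOSL1 fell by 3.66 (standard error 0.34, adjusted p = 7.0e-06) and the cytokine gene LIF fell by 4.20 (standard error 0.36, adjusted p = 3.1e-06). The growth regulator MYC was 2479, 2643 and 2679 with DMSO + DOX and 1022, 762 and 836 with BRAFi + MEKi + DOX, and its log2 fold change was -1.58 (standard error 0.22, adjusted p = 0.00016). CCND1, which encodes cyclin D1, fell by 1.99 (standard error 0.28, adjusted p = 0.00016). The 3 genes that did not pass were DUSP4, at -0.46 (adjusted p = 0.27), DUSP7, at -0.42 (adjusted p = 0.090), and EPHA4, at -0.69 (adjusted p = 0.077), which passed in 3 alternatives, among them the replicate block. DUSP4, another nuclear phosphatase of ERK, was 4508, 3509 and 3589.9 with DMSO + DOX and 2001, 3254 and 3372 with BRAFi + MEKi + DOX, so that only replicate 1 lay well below the controls. Leaving out BRAFi + MEKi + DOX replicate 1 gave 0 higher and 23 lower genes of the list, and averaging replicates 2 and 3 gave 0 and 22.

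**Figure D1:**
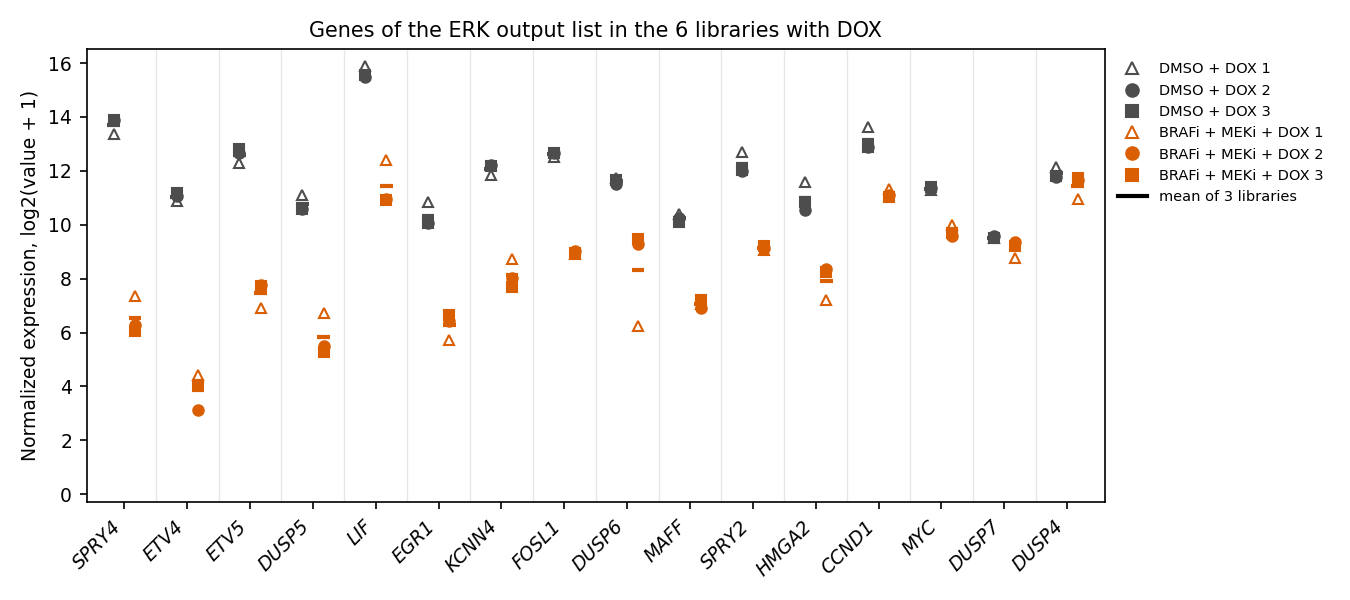
Normalized expression of 16 genes of the ERK output list on a log2(value + 1) axis, 1 point per library (triangles, replicate 1; circles, replicate 2; squares, replicate 3) with group means as bars. SPRY4 and ETV4 lay furthest from the DMSO + DOX libraries, while DUSP4 (log2 fold change -0.46) and DUSP7 (-0.42) did not pass the test.

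ANGPTL7, a secreted angiopoietin-like protein, was 0.929, 3.73 and 4.20 with DMSO + DOX and 14252, 30113 and 29175 with BRAFi + MEKi + DOX, and its log2 fold change of 12.65 (standard error 0.89, adjusted p = 7.0e-07) was the largest rise among called protein-coding genes with a mean of at least 30 over the 6 libraries. The groups were far apart, and replicate 1 was the lowest of the treated libraries. CXCL12, the ligand of the chemokine receptor CXCR4, was 8.39, 0.790 and 1.39 with DMSO + DOX and 837, 194 and 244 with BRAFi + MEKi + DOX, with replicate 1 the highest of the treated libraries and a log2 fold change of 6.64 (standard error 0.79, adjusted p = 4.6e-05). GFRA2, a coreceptor for neurturin, was 11.8, 19.9 and 26.2 with DMSO + DOX and 528, 2057 and 1766 with BRAFi + MEKi + DOX, a log2 fold change of 6.01 (standard error 0.45, adjusted p = 1.1e-06). The transcription factor gene TOX rose by 6.60, the endocytic receptor gene LRP2 by 5.96 and the protocadherin gene PCDH7 by 5.91 on the log2 scale. OTOGL and MYOT were listed at 0 in all DMSO + DOX libraries and were 43.8, 457 and 521 and 30.4, 186 and 231 with BRAFi + MEKi + DOX, respectively. PMP2, a peripheral myelin gene, did not exceed 8.03 with DMSO + DOX and was 34.4, 1220.3 and 1330.0 with BRAFi + MEKi + DOX. Replicate 1 was far below replicates 2 and 3, and with replicates 2 and 3 averaged the gene did not pass the test. At the other end, MYEOV was 371, 318 and 444 with DMSO + DOX and listed at 0 in all treated libraries, as was GJB1, a gap junction gene that was 56.7, 104 and 110.2 with DMSO + DOX. CCL20, the ligand of CCR6, was 4961, 719 and 671 with DMSO + DOX and 12.2, 3.17 and 2.71 with BRAFi + MEKi + DOX, with control replicate 1 far above the other controls and a log2 fold change of -7.83 (standard error 0.76, adjusted p = 9.3e-06). IL19, ESM1, NPPC and MPP4 had log2 fold changes of -7.67, -7.51, -7.43 and -6.74, and no treated library exceeded 4.03 for any of them.

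Most mitosis genes and part of the DNA replication genes fell, and the called regulators of cell cycle entry moved both ways. Of 44 genes of mitosis, 40 fell and 0 rose, against 13.2% and 15.1% of all genes, with a median log2 fold change of -1.29. Cyclin B1, the mitotic partner of CDK1, is encoded by CCNB1, which was 5518, 7027 and 7359.5 with DMSO + DOX and 1944, 2038 and 2139 with BRAFi + MEKi + DOX. The treated libraries lay close together, and the log2 fold change was -1.69 (standard error 0.19, adjusted p = 3.1e-05). PLK1, a kinase of mitotic entry and spindle assembly, was 2214, 3322 and 3341 with DMSO + DOX and 977, 1208 and 1053 with BRAFi + MEKi + DOX, a log2 fold change of -1.43 (standard error 0.25, adjusted p = 0.00097). The proliferation marker MKI67 was 13187, 14903 and 15091 with DMSO + DOX and 6887, 6146 and 6208 with BRAFi + MEKi + DOX and did not overlap between groups, with a log2 fold change of -1.17 (standard error 0.23, adjusted p = 0.0023). AURKA, a mitotic kinase gene, and CDK1 had log2 fold changes of -1.66 and -1.55. With replicates 2 and 3 averaged, 0 genes of mitosis were higher and 25 lower, and without BRAFi + MEKi + DOX replicate 1 0 and 37. Of 40 genes of DNA replication, 21 fell and 0 rose, against the same shares, with a median of -1.02. GINS1, a subunit of the replicative helicase complex, changed by -1.74 (standard error 0.29, adjusted p = 0.00061), and POLE, the catalytic subunit of DNA polymerase epsilon, fell by 2.08 (standard error 0.41, adjusted p = 0.0020). RRM2, a subunit of ribonucleotide reductase, changed by -1.66 (standard error 0.54, adjusted p = 0.033) and lost its call in 8 alternatives, among them that without BRAFi + MEKi + DOX replicate 1. PCNA, the sliding clamp, was at -0.40 and did not pass the test (adjusted p = 0.089), but passed in 3 alternatives, among them the replicate block. Without replicate 1, 13 of the DNA replication genes were lower, with replicates 2 and 3 averaged 9 were, and with the replicate block 34 were. Of 24 genes of homologous recombination and the checkpoint, 14 fell (13.2% of all genes), with a median of -0.88. In this list 11 were lower without replicate 1 and 2 with the averaged replicates.

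Among 26 tested regulators of cell cycle entry, 5 rose and 9 fell. CDKN1C, which encodes the CDK inhibitor p57, rose by 2.04 (standard error 0.31, adjusted p = 0.00032), and the antiproliferative genes BTG2 and TP53INP1 rose by 1.45 and 1.55. CDKN1B, which encodes p27, rose by 0.89 (standard error 0.22, adjusted p = 0.0092), a call that was lost with replicates 2 and 3 averaged. CDKN2C, another CDK inhibitor gene, also rose but lost its call in several alternatives. In contrast the CDK inhibitor gene CDKN2D fell and kept its call in every alternative, with log2 fold changes between -1.25 and -1.05. CDKN1A, which encodes p21, was 5569.6, 3636 and 3807 with DMSO + DOX and 3679.6, 5044 and 4591 with BRAFi + MEKi + DOX, so that the groups overlapped at a log2 fold change of 0.05 (standard error 0.22, adjusted p = 0.90). E2F7, a repressor of the E2F family, and the G1 kinase gene CDK6 fell, with log2 fold changes of -1.85 and -1.18. Among the regulators, 6 were higher and 8 lower without BRAFi + MEKi + DOX replicate 1, and 3 and 7 with replicates 2 and 3 averaged.

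Promoters of the mitosis genes were examined because most of these genes fell. Promoter sequences were taken from RefSeq (GRCh38.p14, 250 bases before to 50 after the annotated start) and were found for 37 of the 44 genes. The cell cycle homology region (CHR), searched as TTTGAA on both strands, was found in 26 of these 37 promoters (70.3%), compared with 10.3% of the 12036 promoters of tested protein-coding genes and 15.4% of all 27305 promoters of that length. All 26 genes with the motif fell, as did 40 of the 44 genes of the whole list. In 15 of the 26 genes the motif began in the 60 bases upstream of the start. The motif was in 12% of the promoters of protein-coding genes that fell and in 8.7% of those that rose. Examples with a match close to the start are shown as the 150 bases upstream of PLK1 (chr16:23678739-23678888, plus strand), CCNB2 (chr15:59104996-59105145, plus strand), CKS1B (chr1:154974531-154974680, plus strand) and MKI67 (chr10:128126424-128126573, minus strand), written 5′ to 3′ on the strand of the gene with the TTTGAA letters in capitals.
PLK1: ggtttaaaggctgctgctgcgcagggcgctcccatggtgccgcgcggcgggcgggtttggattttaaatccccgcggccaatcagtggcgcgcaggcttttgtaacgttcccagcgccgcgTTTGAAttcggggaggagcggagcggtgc
CCNB2: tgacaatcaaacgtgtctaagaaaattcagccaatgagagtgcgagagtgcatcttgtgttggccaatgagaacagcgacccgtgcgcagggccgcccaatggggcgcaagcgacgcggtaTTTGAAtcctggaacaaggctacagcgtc
CKS1B: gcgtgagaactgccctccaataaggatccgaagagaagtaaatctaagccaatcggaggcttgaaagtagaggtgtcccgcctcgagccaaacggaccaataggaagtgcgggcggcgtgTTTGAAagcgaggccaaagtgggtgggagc
MKI67: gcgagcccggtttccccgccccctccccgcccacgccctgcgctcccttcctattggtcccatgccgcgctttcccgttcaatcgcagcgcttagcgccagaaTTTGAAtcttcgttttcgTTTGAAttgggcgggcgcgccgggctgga
The motif began 29 bases upstream of the start in PLK1 and CCNB2 and 30 bases upstream in CKS1B, and MKI67 held a pair, at 47 and 29 bases. CCNB2, a B-type cyclin gene, changed by -1.31 (standard error 0.32, adjusted p = 0.0084) and lost its call with replicates 2 and 3 averaged, and CKS1B, a CDK-binding subunit gene, changed by -1.49 (standard error 0.24, adjusted p = 0.00048). A match gives only the presence of these letters.

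The called genes of the lysosome list were mostly higher and those of the ribosome biogenesis list were lower. Of 34 genes of the lysosome and autophagy, 16 rose, 3 fell and 15 did not pass, against 15.1% of all genes that rose, with a median of 0.43. The lysosomal protease gene CTSD was 13194, 11727 and 11583 with DMSO + DOX and 44754, 56302 and 51812 with BRAFi + MEKi + DOX and did not overlap between groups, with a log2 fold change of 2.06 (standard error 0.17, adjusted p = 2.0e-06). GAA, the lysosomal glucosidase gene, rose by 1.75 (standard error 0.15, adjusted p = 3.2e-06), and GRN, which encodes progranulin, by 1.79 (standard error 0.19, adjusted p = 2.1e-05). TFEB, a transcription factor of lysosomal genes, rose by 1.19 (standard error 0.29, adjusted p = 0.0074). CTSS, a cathepsin of antigen-presenting cells, fell by 3.04 (standard error 0.59, adjusted p = 0.0019) and NPC1, a lysosomal cholesterol transporter gene, fell by 0.73 (standard error 0.11, adjusted p = 0.00033). The number of genes of the lysosome list called was 17 higher and 3 lower without BRAFi + MEKi + DOX replicate 1, and 11 and 2 with the averaged replicates. Of 32 genes of ribosome biogenesis, 22 fell and 0 rose, against 13.2% and 15.1% of all genes, with a median of -0.66. FBL, the methyltransferase of box C/D snoRNPs, fell by 1.24 (standard error 0.22, adjusted p = 0.00088), and POLR1G, a subunit of RNA polymerase I, fell by 1.40 (standard error 0.23, adjusted p = 0.00050). Without BRAFi + MEKi + DOX replicate 1, 18 of these genes were lower, and 15 were with replicates 2 and 3 averaged.

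The same promoter letters were searched in both lists because most called genes of one rose and those of the other fell. The E-box CACGTG, which reads the same on both strands, was in 11 of 25 promoters of the ribosome biogenesis list (44%) and in 8 of 21 of lysosome genes (38.1%), compared with 9.8% of promoters of tested protein-coding genes and 7.4% of all promoters of the table. Of the 11 genes of that list with the motif, 6 fell and 5 did not pass. This list also holds the mitochondrial chaperonin genes HSPD1, which fell, and HSPE1, which did not pass, and both are among the 11. Of the 8 lysosome genes, 6 rose and 2 did not pass. The motif was in 9.3% of promoters of protein-coding genes that rose and 10.4% of those that fell. The 150 bases upstream of CTSD (chr11:1763928-1764077, minus strand), GAA (chr17:80101431-80101580, plus strand), POLR1G (chr19:45406494-45406643, plus strand) and HSPD1 (chr2:197500275-197500424, minus strand) show the motif in capitals in a pair of genes that rose and a pair that fell.
CTSD: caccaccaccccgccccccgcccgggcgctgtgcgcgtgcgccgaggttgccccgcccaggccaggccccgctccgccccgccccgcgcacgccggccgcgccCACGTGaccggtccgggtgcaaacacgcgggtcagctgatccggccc
GAA: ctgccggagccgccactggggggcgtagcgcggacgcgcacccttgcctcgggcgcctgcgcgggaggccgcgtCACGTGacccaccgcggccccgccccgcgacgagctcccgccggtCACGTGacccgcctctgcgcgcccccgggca
POLR1G: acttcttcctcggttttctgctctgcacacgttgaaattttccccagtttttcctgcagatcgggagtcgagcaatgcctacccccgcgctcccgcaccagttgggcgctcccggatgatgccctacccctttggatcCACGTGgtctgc
HSPD1: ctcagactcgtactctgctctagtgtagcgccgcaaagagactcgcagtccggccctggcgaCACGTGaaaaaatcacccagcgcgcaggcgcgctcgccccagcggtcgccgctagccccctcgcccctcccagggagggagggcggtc
The letters began 47 bases upstream of the start in CTSD, 76 and 31 bases in GAA, 12 bases in POLR1G and 88 bases in HSPD1, which changed by -1.01 (standard error 0.14, adjusted p = 0.00012). The core letters of an ETS site, CCGGAA on either strand, were in 4 of 16 promoters of the ERK output list (25%) and in 27% of promoters of tested protein-coding genes. The M-box CATGTG on either strand was in 10 of 19 promoters of the pigmentation list (52.6%) and in 7.1% of those of tested protein-coding genes, and of the 7 tested genes with it 1 rose, 3 fell and 3 did not pass.

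**Figure D2:**
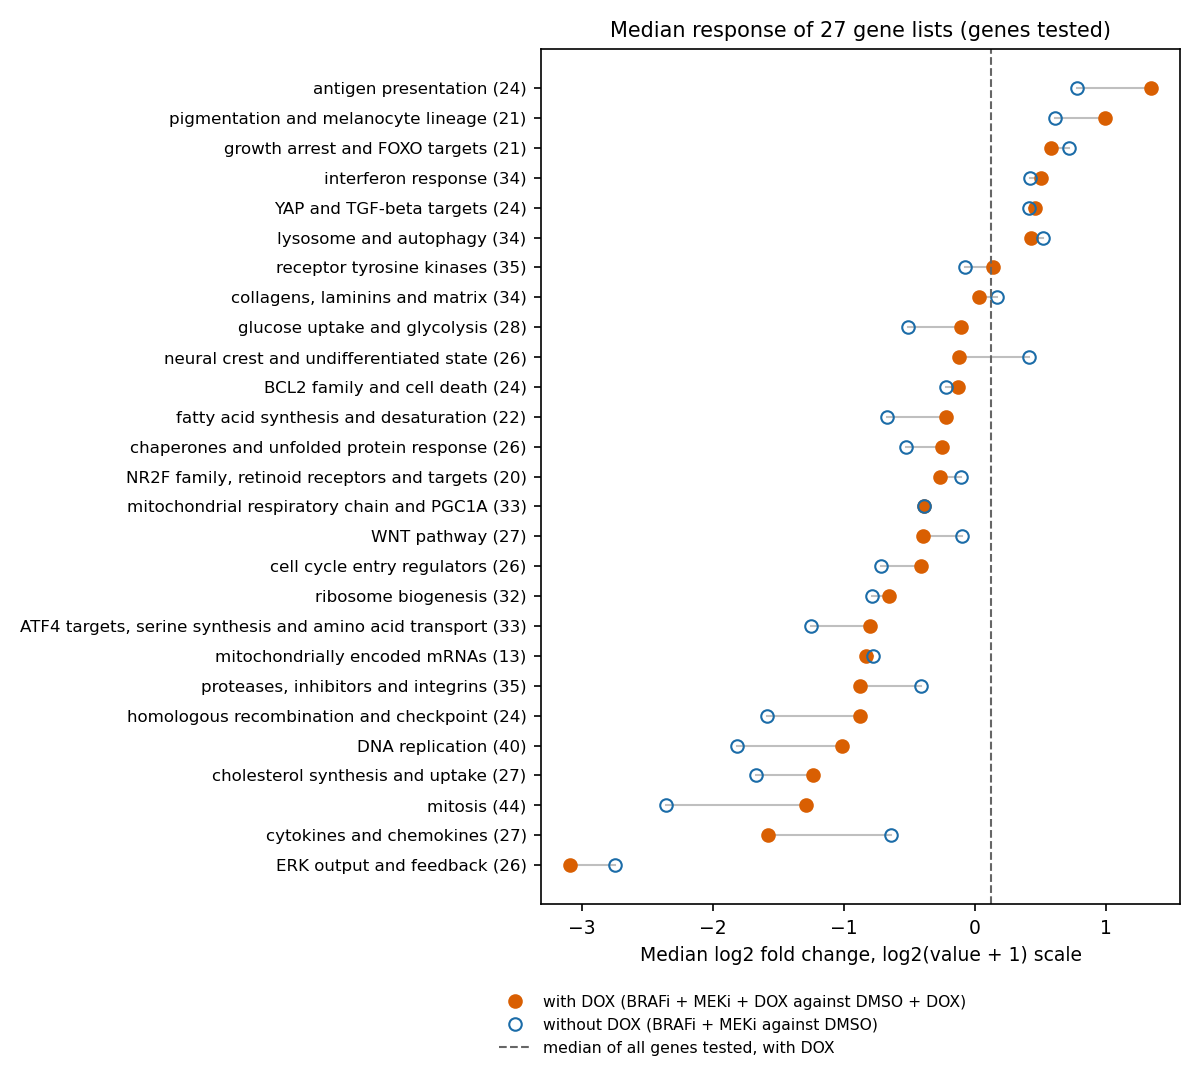
Median log2 fold change of 27 gene lists with DOX (filled) and without DOX (open), with the number of genes tested in parentheses and a dashed line at the median of all genes tested with DOX (0.12). ERK output lay lowest with DOX (-3.09) and antigen presentation highest (1.34), and the mitosis list lay at -1.29 with DOX and -2.36 without.

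Most genes of the sterol list fell with inhibitors. Of 27 genes of cholesterol synthesis and uptake, 20 fell, 2 rose and 5 did not pass, with a median of -1.24. HMGCS1, an early enzyme of the pathway, was 23862, 19369 and 19521 with DMSO + DOX and 2957, 4375 and 5028 with BRAFi + MEKi + DOX. No treated library reached a control, and the log2 fold change was -2.37 (standard error 0.23, adjusted p = 9.5e-06). DHCR7, which catalyzes a last step, fell by 2.28 (standard error 0.18, adjusted p = 2.0e-06). The genes that rose were ABCA1, the cholesterol exporter, by 1.71 (standard error 0.26, adjusted p = 0.00031), and MYLIP, a ubiquitin ligase gene, by 1.83 (standard error 0.27, adjusted p = 0.00026). For the genes of sterol metabolism, averaging replicates 2 and 3 gave 2 higher and 19 lower calls, and leaving out BRAFi + MEKi + DOX replicate 1 gave 4 and 20. Of 22 genes of fatty acid synthesis and desaturation, 4 rose and 9 fell. ACSL3, an acyl-CoA synthetase gene, fell by 1.77 (standard error 0.16, adjusted p = 5.5e-06) and ACSS2, an acetyl-CoA synthetase gene, fell by 1.62 (standard error 0.18, adjusted p = 2.2e-05). FASN, the fatty acid synthase gene, was at -1.26 (adjusted p = 0.031). It lost its call in several alternatives, among them those without replicate 1 and with replicates 2 and 3 averaged. In this list 2 genes were higher and 6 lower without replicate 1, and 0 and 6 with the averaged replicates.

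In the glucose list TXNIP rose while most glycolytic enzymes did not pass. TXNIP, an inhibitor of glucose uptake and a sensor of glucose, was 95.5, 77.7 and 59.0 with DMSO + DOX and 1818, 5950.2 and 6108 with BRAFi + MEKi + DOX, and each treated library was above every control at a log2 fold change of 5.72 (standard error 0.50, adjusted p = 4.1e-06). Its paralog ARRDC4 rose by 2.69 (standard error 0.42, adjusted p = 0.00042) and PDK2, an inhibitory kinase of pyruvate dehydrogenase, by 1.39 (standard error 0.23, adjusted p = 0.00056). SLC2A1, which encodes the glucose transporter GLUT1, rose by 1.08 (standard error 0.23, adjusted p = 0.0038). In contrast PFKFB3, an activator of glycolysis, fell by 1.29 (standard error 0.24, adjusted p = 0.0015). LDHA, lactate dehydrogenase A, was 55476, 54167 and 56938 with DMSO + DOX and 17815, 62072 and 71403 with BRAFi + MEKi + DOX, with only replicate 1 below the controls and a log2 fold change of -0.37 (standard error 0.42, adjusted p = 0.55). Of 28 genes, 4 rose and 4 fell, shares near the 15.1% and 13.2% of all genes. Leaving out BRAFi + MEKi + DOX replicate 1 gave 4 higher and 3 lower genes of this list, and averaging replicates 2 and 3 gave 4 and 3.

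Of 33 ATF4 targets and genes of serine synthesis and amino acid transport, 3 rose and 16 fell, with a median of -0.80. ASNS, asparagine synthetase, was 7574, 10589 and 10702 with DMSO + DOX and 5618, 1401 and 1402 with BRAFi + MEKi + DOX. Replicate 1 was the highest of the treated libraries and all of these lay below the controls, at a log2 fold change of -2.09 (standard error 0.43, adjusted p = 0.0029), and the call was lost with replicates 2 and 3 averaged. PHGDH, the first enzyme of serine synthesis, changed by -1.69 (standard error 0.31, adjusted p = 0.0012) and SLC6A9, a glycine transporter gene, fell by 2.21 (standard error 0.40, adjusted p = 0.0012). DDIT4, an inhibitor of mTORC1, rose by 1.61 (standard error 0.30, adjusted p = 0.0015), ATF3 rose by 1.31 (standard error 0.35, adjusted p = 0.012), and SLC1A4, a neutral amino acid transporter gene, rose by 0.94 (standard error 0.13, adjusted p = 0.00016). With replicates 2 and 3 averaged, 3 genes of the ATF4 list were higher and 8 lower, and without BRAFi + MEKi + DOX replicate 1 3 and 22.

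Lineage genes of the neural crest and the melanocyte did not move as one group. Of 21 tested genes of pigmentation and the melanocyte lineage, 8 rose and 4 fell, with a median of 0.99. SOX10, the neural crest transcription factor, was 5684, 6094 and 6028 with DMSO + DOX and 9441, 13836 and 12497 with BRAFi + MEKi + DOX, so that each treated library was above each control at a log2 fold change of 0.99 (standard error 0.17, adjusted p = 0.00066). MITF, the master regulator of the melanocyte, was at 0.87 and did not pass the test (adjusted p = 0.057), but passed in 8 alternatives, among them the replicate block and rescaling, with adjusted p between 0.0043 and 0.25 over all alternatives. ERBB3, the neuregulin receptor, was 269, 769 and 789.7 with DMSO + DOX and 2368, 4045 and 4256 with BRAFi + MEKi + DOX, a log2 fold change of 2.65 (standard error 0.39, adjusted p = 0.00025). EDNRB, the endothelin receptor of melanoblasts, rose by 2.01 (standard error 0.24, adjusted p = 4.3e-05) and S100B, a melanocyte and glial marker, by 2.03 (standard error 0.41, adjusted p = 0.0025). DCT, a melanogenic enzyme gene, was listed at 0 in the controls and was 232, 11.0 and 2.13 with BRAFi + MEKi + DOX, highest in replicate 1, and its call was lost in 4 alternatives. OCA2 fell by 3.58 (standard error 0.79, adjusted p = 0.0044), a call lost with replicates 2 and 3 averaged, and BCL2A1, a survival gene under MITF control, fell by 2.16 (standard error 0.32, adjusted p = 0.00026). Among the genes of the pigmentation list, 6 were higher and 4 lower without BRAFi + MEKi + DOX replicate 1, and 5 and 1 with replicates 2 and 3 averaged. Of 26 genes of the neural crest and the undifferentiated state, 6 rose and 6 fell. TFAP2A and TFAP2B, transcription factors of the neural crest, rose by 2.08 and 2.92 on the log2 scale. NT5E, which encodes the ectoenzyme CD73, was 23623, 19315 and 19585 with DMSO + DOX and 1329, 848 and 809 with BRAFi + MEKi + DOX, without overlap and with a log2 fold change of -4.42 (standard error 0.18, adjusted p = 9.9e-09). TNC, which encodes tenascin C, fell by 3.93 (standard error 0.36, adjusted p = 5.4e-06) and NRG1, the ligand of ERBB3, fell by 1.56 (standard error 0.34, adjusted p = 0.0037). For the neural crest list the counts were 6 higher and 8 lower without replicate 1, and 4 and 5 with the averaged replicates.

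The called receptor tyrosine kinases included both genes that rose and genes that fell. Of 35 tested genes, 9 rose, 8 fell and 18 did not pass, with a median of 0.14. NTRK2, the receptor for brain-derived neurotrophic factor, was 141, 287 and 219 with DMSO + DOX and 1970.3, 4171 and 4319 with BRAFi + MEKi + DOX, and all treated libraries were above all controls at a log2 fold change of 3.98 (standard error 0.46, adjusted p = 3.5e-05). PDGFRB rose by 2.26 (standard error 0.24, adjusted p = 2.0e-05) and the fibroblast growth factor receptor gene FGFR3 by 2.22 (standard error 0.28, adjusted p = 6.8e-05). MET, the receptor for hepatocyte growth factor, was 1769.9, 925 and 976 with DMSO + DOX and 159, 62.8 and 107 with BRAFi + MEKi + DOX, a log2 fold change of -3.50 (standard error 0.47, adjusted p = 0.00012). EGFR and the ephrin receptor genes EPHA2 and EPHB2 fell, with log2 fold changes of -1.34, -1.41 and -1.43. The number of receptor genes called was 9 higher and 8 lower without BRAFi + MEKi + DOX replicate 1, and 7 and 6 with the averaged replicates. Of 20 genes of the NR2F family, retinoid receptors and their targets, 4 rose and 6 fell. NR2F1 itself (chr5:93583222-93594611, plus strand, GRCh38) was 20699, 9155 and 9270.3 with DMSO + DOX and 35187, 35345 and 30839 with BRAFi + MEKi + DOX. Without DOX it was 6273, 2182 and 2327 with DMSO, below every library with DOX. With DOX, control replicate 1 lay above the other controls and each treated library was above each control, with a log2 fold change of 1.48 (standard error 0.38, adjusted p = 0.0097). This call was lost with replicates 2 and 3 averaged, where the adjusted p was 0.095, and reads from the NR2F1 cDNA and from the gene cannot be told apart. The library kit did not mark strand, so reads of NR2F1 and of its antisense neighbor NR2F1-AS1 (-1.33) cannot be separated where they overlap. NR2F2 changed by -0.91 (standard error 0.26, adjusted p = 0.019) and lost its call in 6 of the alternatives tried. The retinaldehyde dehydrogenase gene ALDH1A3 fell by 3.07 (standard error 0.22, adjusted p = 8.3e-07) and TGM2, a transglutaminase gene induced by retinoic acid, fell by 4.17 (standard error 0.46, adjusted p = 2.4e-05). RXRA and RXRB, the partners of retinoid receptors, rose by 0.65 and 0.83, and the call of RXRA was lost with the averaged replicates. In the NR2F list 4 genes were higher and 7 lower without replicate 1, and 1 and 3 with the averaged replicates.

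Most antigen presentation genes rose, with the largest rises in HLA-DRA, CIITA, HLA-DRB1 and CD74 of the class II pathway. Of 24 tested genes, 16 rose and 1 fell, against 15.1% of all genes that rose, and the median was 1.34. CIITA, the transactivator of MHC class II genes, was 7.41, 15.2 and 11.7 with DMSO + DOX and 204, 1185 and 1116 with BRAFi + MEKi + DOX, with replicate 1 well below replicates 2 and 3 but above all controls and a log2 fold change of 5.75 (standard error 0.66, adjusted p = 3.5e-05). HLA-DRA, the class II alpha chain, was 9.17, 9.55 and 19.3 with DMSO + DOX and 203, 1941 and 1988 with BRAFi + MEKi + DOX. The groups did not overlap, replicate 1 was far below the other treated libraries, and the log2 fold change was 6.15 (standard error 0.79, adjusted p = 8.9e-05). HLA-DRB1 and the invariant chain gene CD74 rose by 5.43 and 4.64. HLA genes are polymorphic and similar to one another, so reads may have been split among them by the authors' counting. CD274, which encodes PD-L1, fell by 2.44 (standard error 0.64, adjusted p = 0.012) and lost its call with replicates 2 and 3 averaged. For the antigen presentation genes, averaging replicates 2 and 3 gave 15 higher and 0 lower calls, and leaving out BRAFi + MEKi + DOX replicate 1 gave 15 and 1. Of 34 interferon response genes, 11 rose and 1 fell. GBP1, a guanylate-binding protein gene induced by interferon gamma, was 98.0, 149 and 142 with DMSO + DOX and 1058, 1037 and 927 with BRAFi + MEKi + DOX, a log2 fold change of 2.97 (standard error 0.22, adjusted p = 9.8e-07) with close treated libraries. STAT2, a transcription factor of the type I response, rose by 1.99 (standard error 0.15, adjusted p = 1.5e-06) and IFI6 by 2.50 (standard error 0.52, adjusted p = 0.0029), while OAS3, an antiviral enzyme gene, fell by 1.07 (standard error 0.27, adjusted p = 0.010), a call lost in 3 alternatives. Without BRAFi + MEKi + DOX replicate 1 the interferon list had 8 higher and 4 lower genes and a median of 0.25 instead of 0.50, and with the averaged replicates 9 and 0.

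**Figure D3:**
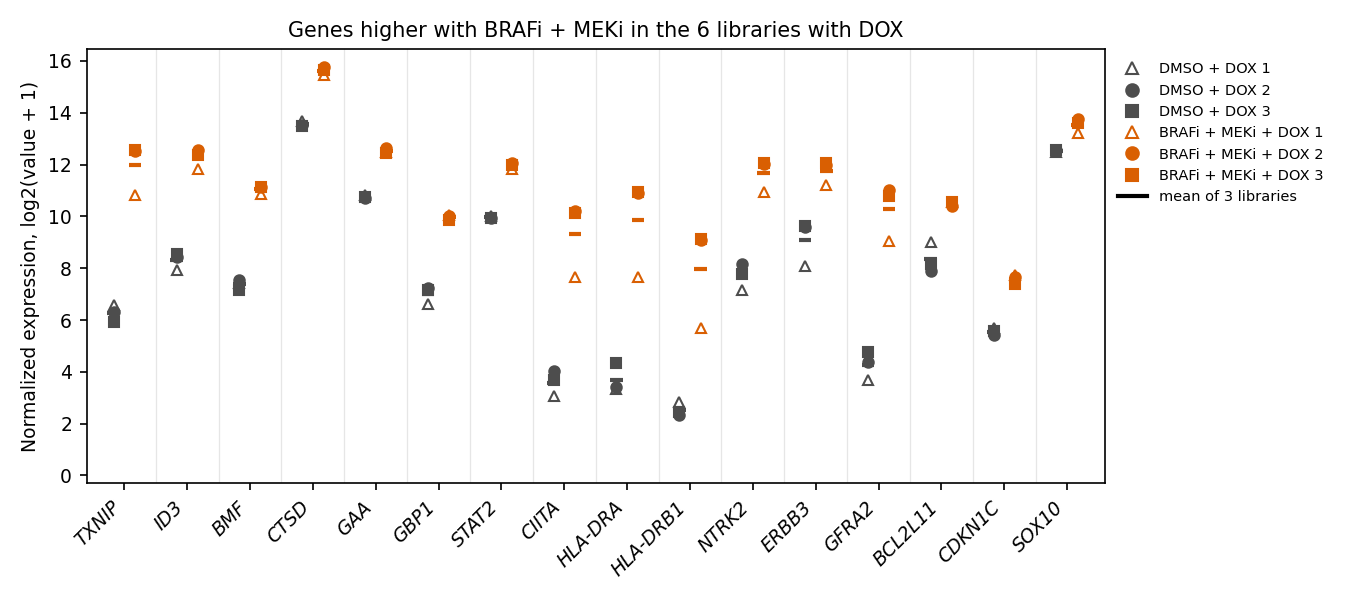
Normalized expression of 16 genes that were higher with BRAFi + MEKi + DOX, on a log2(value + 1) axis, 1 point per library (triangles, replicate 1) with group means as bars. BMF, CTSD and GBP1 had treated libraries close together, while replicate 1 lay below replicates 2 and 3 for CIITA, HLA-DRA and HLA-DRB1.

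Of 27 tested cytokine and chemokine genes, 12 fell, 1 rose and 14 did not pass, against 13.2% and 15.1% of all genes that fell and rose, with a median of -1.58. CXCL8, which encodes interleukin 8, was 64056, 9410.2 and 8603 with DMSO + DOX and 3974, 49.0 and 42.3 with BRAFi + MEKi + DOX. Replicate 1 was the highest library in both groups, the groups did not overlap, and the log2 fold change was -6.40 (standard error 1.57, adjusted p = 0.0080), a call lost with replicates 2 and 3 averaged. IL1B was 159252, 75911 and 73826 with DMSO + DOX and 57340.4, 1384 and 1352 with BRAFi + MEKi + DOX, with replicate 1 again highest in both groups and a log2 fold change of -4.34 (standard error 1.12, adjusted p = 0.011), a call lost in 3 alternatives. CXCL1, another CXCR2 ligand gene, fell by 4.57 (standard error 0.82, adjusted p = 0.0010). IL6 was 2118, 1220.2 and 1379 with DMSO + DOX and 1362, 946 and 1036 with BRAFi + MEKi + DOX and did not pass the test (-0.47, adjusted p = 0.11), though it passed without BRAFi + MEKi + DOX replicate 1 and with array weights. CCL2, a monocyte attractant gene, was the 1 gene of the list that rose, by 1.42 (standard error 0.40, adjusted p = 0.016), a call lost in 4 alternatives. Leaving out BRAFi + MEKi + DOX replicate 1 gave 2 higher and 14 lower cytokine genes, and averaging replicates 2 and 3 gave 0 and 6.

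The called matrix and adhesion genes moved both ways. Of 34 genes of collagens, laminins and matrix, 9 rose, 8 fell and 17 did not pass. COL5A1 rose by 2.11 (standard error 0.23, adjusted p = 2.2e-05). COL13A1, a transmembrane collagen gene, was 387, 693 and 551 with DMSO + DOX and 21.8, 1.95 and 8.38 with BRAFi + MEKi + DOX and fell by 5.95 (standard error 0.59, adjusted p = 1.2e-05). LOX, the collagen crosslinking enzyme gene, was 4822, 2921 and 2938 with DMSO + DOX and 523, 791 and 731 with BRAFi + MEKi + DOX, without overlap and with a log2 fold change of -2.36 (standard error 0.29, adjusted p = 6.5e-05). THBS1, which encodes thrombospondin 1, and SPARC had log2 fold changes of 2.13 and 1.93, but replicate 1 lay well below replicates 2 and 3 and both calls were lost in several alternatives. With replicates 2 and 3 averaged, 6 matrix genes were higher and 4 lower, and without BRAFi + MEKi + DOX replicate 1 13 and 7. Of 35 genes of proteases, inhibitors and integrins, 5 rose, 17 fell and 13 did not pass, with a median of -0.88. MMP1, interstitial collagenase, was 203, 97.6 and 94.7 with DMSO + DOX and 5.74, 0 and 0 with BRAFi + MEKi + DOX and fell by 6.04 (standard error 0.84, adjusted p = 0.00017), and ITGA3, the integrin alpha 3 gene, fell by 3.62 (standard error 0.32, adjusted p = 4.3e-06). The rises were in MMP15 by 3.01 (standard error 0.32, adjusted p = 1.9e-05), ITGA1 by 2.15 (standard error 0.26, adjusted p = 6.0e-05) and ADAM8 by 3.43 (standard error 0.62, adjusted p = 0.0011), among others. For proteases and integrins the counts were 5 higher and 17 lower without replicate 1, and 5 and 12 with the averaged replicates.

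Of 24 targets of YAP and TGF-beta, 10 rose and 4 fell. ID3, an inhibitor of basic helix-loop-helix factors and a BMP target, was 244, 344 and 372 with DMSO + DOX and 3665, 5996 and 5362 with BRAFi + MEKi + DOX, without overlap and with replicate 1 the lowest of the treated libraries, at a log2 fold change of 3.96 (standard error 0.25, adjusted p = 1.9e-07). ID2 and SMAD6, which are also BMP targets, rose by 2.16 and 2.34. CCN2, a YAP target, was 4655, 10490.3 and 10284 with DMSO + DOX and 1271, 14736 and 14241 with BRAFi + MEKi + DOX, with replicate 1 below the controls and replicates 2 and 3 above them, and a log2 fold change of -0.30 (standard error 0.95, adjusted p = 0.85). Among the genes of this list, 11 were higher and 4 lower without BRAFi + MEKi + DOX replicate 1, and 6 and 4 with replicates 2 and 3 averaged.

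Of 24 genes of the BCL2 family and other genes of cell death, 3 rose and 8 fell, against 15.1% and 13.2% of all genes. BMF, a BH3-only activator of cell death, was 171, 186 and 143 with DMSO + DOX and 1878, 2229 and 2264 with BRAFi + MEKi + DOX, a log2 fold change of 3.67 (standard error 0.22, adjusted p = 1.3e-07) with close treated libraries. BCL2L11, which encodes BIM, was 515, 239 and 285 with DMSO + DOX and 1489, 1340.0 and 1493 with BRAFi + MEKi + DOX and rose by 2.13 (standard error 0.25, adjusted p = 4.3e-05). PMAIP1, which encodes the BH3-only protein NOXA, was 5329, 2403 and 2369.6 with DMSO + DOX and 756, 107 and 82.7 with BRAFi + MEKi + DOX and fell by 4.04 (standard error 0.61, adjusted p = 0.00030). The antiapoptotic MCL1 fell by 1.46 (standard error 0.15, adjusted p = 1.7e-05), and BIRC3, an inhibitor of apoptosis gene, fell by 1.88 (standard error 0.31, adjusted p = 0.00062). The number of genes of this list called was 4 higher and 9 lower without BRAFi + MEKi + DOX replicate 1, and 2 and 7 with the averaged replicates. Of 21 genes of growth arrest and FOXO targets, 11 rose and 3 fell, with a median of 0.58. PIK3IP1, an inhibitor of PI3K, rose by 3.37 (standard error 0.36, adjusted p = 1.9e-05), CITED2 by 1.97 (standard error 0.35, adjusted p = 0.0010) and the transcription factor gene FOXO4 by 1.78 (standard error 0.27, adjusted p = 0.00031), while KLF6 fell by 1.71 (standard error 0.22, adjusted p = 7.5e-05). In the FOXO list 10 genes were higher and 4 lower without replicate 1, and 8 and 2 with the averaged replicates.

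To determine where the response with DOX differed from that without DOX, the difference of both log2 fold changes was tested in the same limma fit. Without DOX, 3655 genes (16.5%) were higher and 3191 (14.4%) lower with BRAFi + MEKi than with DMSO. The comparisons share no library. A total of 2361 genes were higher in both, which is 70.8% of the genes higher with DOX and 64.6% of those higher without, and 2221 were lower in both, or 76.1% and 69.6%. The log2 fold changes correlated across genes at r = 0.78, where genes are not independent replicates. In the test of the difference, 0 genes (0% of 22144) passed at an adjusted p below 0.05, the smallest adjusted p was 0.11, and 1267 genes (5.72%) had an unadjusted p below 0.05. With array weights 20 genes passed, without BRAFi + MEKi + DOX replicate 1 57 passed, of which 14 were above 0 and 43 below, without its replicate 2 there was 1, and with replicates 2 and 3 averaged there were 0. The fit without replicate 1 left only replicates 2 and 3, which lay close together, in that group and kept replicate 1 in the other groups. The smallest p belonged to FREM1, an extracellular matrix gene, which was 2080.2, 2265 and 2192 with DMSO + DOX and 2054, 1323 and 1650.5 with BRAFi + MEKi + DOX. Its log2 fold change was -0.40 with DOX and -2.13 without, a difference of 1.73 (95% interval 1.21 to 2.25, unadjusted p = 5.0e-06, adjusted p = 0.11). It passed without BRAFi + MEKi + DOX replicate 1 (adjusted p = 0.016) and with array weights (adjusted p = 0.0092). NES, the neural progenitor filament gene nestin, was 22250.0, 22614 and 22309 with DMSO + DOX and 18893, 14960.1 and 15325 with BRAFi + MEKi + DOX. It was called lower with DOX (-0.46) and higher without (0.81), with a difference of -1.27 (95% interval -1.70 to -0.83, unadjusted p = 2.5e-05, adjusted p = 0.27) that passed in the same 2 alternatives as FREM1, and its call with DOX was lost in 8 alternatives.

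The medians of the mitosis and DNA replication lists were nearer to 0 with DOX than without, and none of their genes passed the test of the difference. All 44 mitosis genes had a difference above 0, with medians of -1.29 with DOX and -2.36 without, and 32 had an unadjusted p below 0.05, while 50.4% of all genes had a difference above 0. All 40 DNA replication genes also had a difference above 0, with medians of -1.02 and -1.82. This held for all 44 and all 40 genes without BRAFi + MEKi + DOX replicate 1 as well, with median differences of 1.07 and 1.02. MKI67 changed by -1.17 with DOX and -2.69 without, a difference of 1.52 (95% interval 0.81 to 2.23, unadjusted p = 0.00042, adjusted p = 0.53). The ERK output list had medians of -3.09 and -2.75 without DOX, and 5 of its 26 differences were above 0. SPRY4 had a difference of -1.42 (95% interval -2.33 to -0.51, unadjusted p = 0.0049, adjusted p = 0.79). Without BRAFi + MEKi + DOX replicate 1, 10 genes of the lists passed the test of the difference, among them SPRY4, IL1A, GDNF, NGFR and NES below 0 and FASN, SCD and SLC1A4 above 0. In that fit the group held only the close replicates 2 and 3, and with these averaged 0 genes passed. IL6 was at -0.47 with DOX and 0.92 without, a difference of -1.39 (95% interval -2.02 to -0.76, unadjusted p = 0.00032, adjusted p = 0.53). CDKN1A was at 0.05 and -1.40, a difference of 1.45 (95% interval 0.77 to 2.12, unadjusted p = 0.00042, adjusted p = 0.53). With array weights the differences of IL6 and CDKN1A passed (adjusted p = 0.040 and 0.036), and without BRAFi + MEKi + DOX replicate 1 they did not (adjusted p = 0.055 and 0.090).

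**Figure D4:**
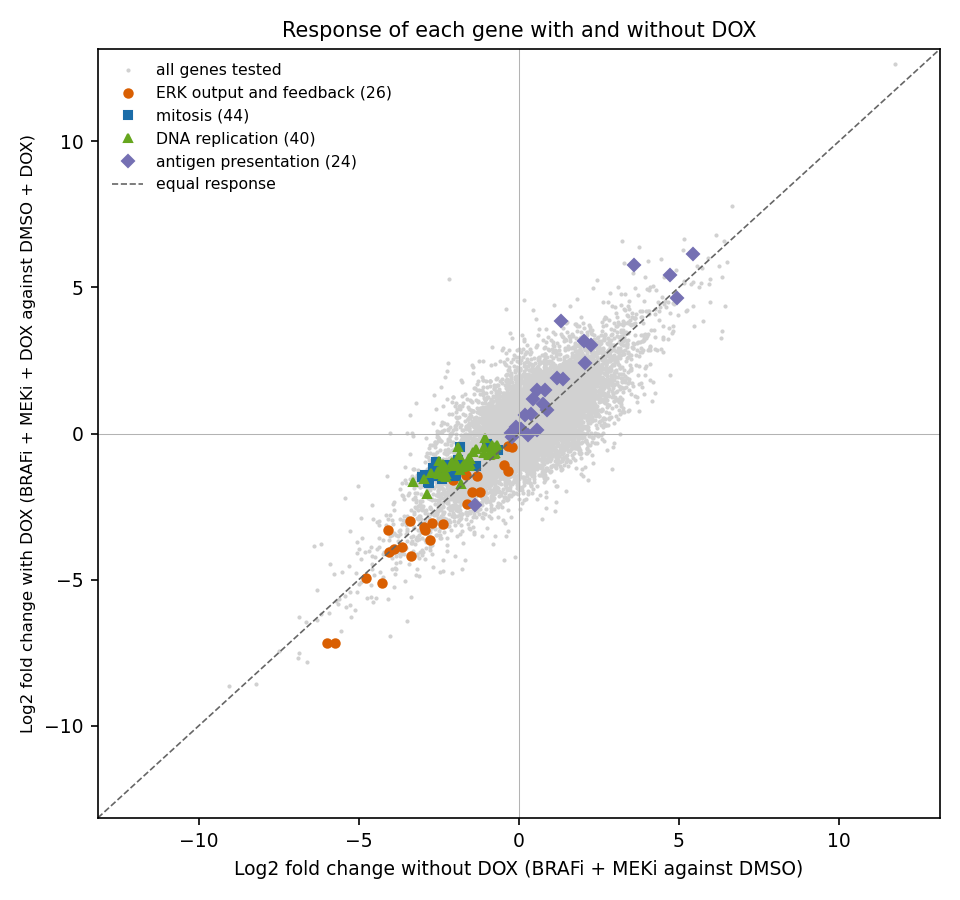
Log2 fold change of each tested gene without DOX (x axis) and with DOX (y axis), with 4 lists in color and a dashed line of equal response. The genes of mitosis and DNA replication lay above the line, with medians of -1.29 and -1.02 with DOX and -2.36 and -1.82 without.

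Genes at which BRAFi + MEKi + DOX replicate 1 stood apart were of several kinds. Replicate 1 was higher than replicates 2 and 3 for CXCL8, IL1B, IL1A, STRA6, SLC7A11, ASNS and PHGDH and lower for PMP2, LDHA, CCN2, THBS1, SPARC and DUSP6. IL1A, the gene of interleukin 1 alpha, was 5304, 4979 and 4755 with DMSO + DOX and 3365, 165 and 179 with BRAFi + MEKi + DOX. SLC7A11, the cystine transporter gene, was 9879.6, 5414 and 5311 with DMSO + DOX and 7017, 604 and 572 with BRAFi + MEKi + DOX, and STRA6, the retinol receptor gene, was 5165, 5552 and 5585 with DMSO + DOX and 5816, 687 and 569.6 with BRAFi + MEKi + DOX. The calls of SLC7A11 and STRA6 were lost in 7 and 15 alternatives, and that of IL1A with replicates 2 and 3 averaged. Replicate 1 of the treated cells was within the controls for SLC7A11, above them for STRA6 and below them for IL1A, and replicates 2 and 3 were below the controls for all 3 genes. In the libraries with BRAFi + MEKi but no DOX, replicate 1 was also the lowest for PMP2 and the highest for CXCL8. Replicate 1 had the lowest array weight, which is lower for noisier libraries, in every group of the line. It was 0.30 with BRAFi + MEKi + DOX, 0.45 with DMSO + DOX and 0.54 with BRAFi + MEKi. With DMSO it was 0.62, close to the 0.66 of replicate 2. The part of culture, library or RNA in this pattern was not tested.

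**Figure D5:**
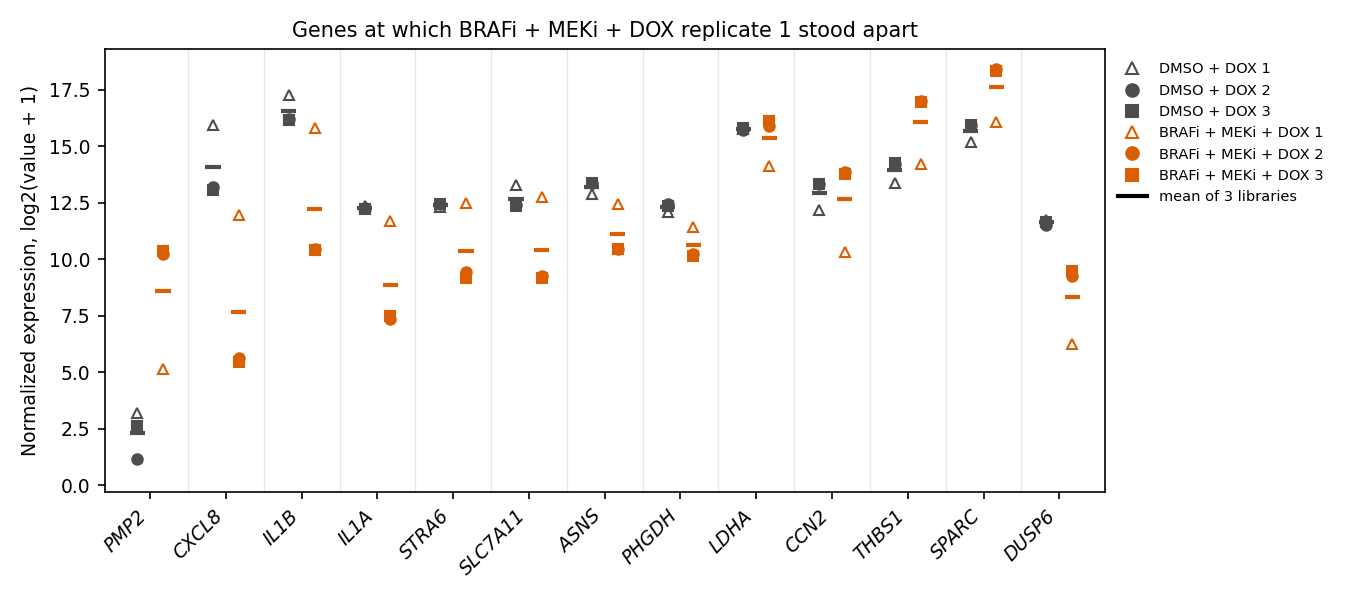
Normalized expression of 13 genes at which BRAFi + MEKi + DOX replicate 1 (open orange triangle) lay away from replicates 2 and 3, on a log2(value + 1) axis with group means as bars. Replicates 2 and 3 lay close together, as for IL1A (3365, 165 and 179 in replicates 1, 2 and 3).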

How the data were processed

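RNA of 1205LuTR-NR2F1 cells was sequenced after a library preparation that does not mark strand. The authors aligned reads with STAR to GRCh38, quantified GENCODE genes with RSEM and normalized them with DESeq2. The deposited values, which are not counts, are this normalized expression signal, 1 value per gene and library. Read numbers could not be worked back from them, so depth per library is unknown and no counting interval is given. Of 60656 gene IDs, 60401 were matched to names in GENCODE 44.

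The values were analysed as log2(value + 1), so fold changes of low genes are understated. Genes reaching a mean of 1 in any group were fitted over the 12 libraries of the line with limma 3.58.1 (R 4.3.3, trended moderated test, two-sided), and p-values were adjusted by Benjamini-Hochberg over all 22144 genes with a threshold of 0.05. Each value is the log2 fold change between groups of 3 libraries. Its standard error rests on the variance pooled over the 12 libraries of the fit. In data simulated for this comparison, 54 of 100 genes changed by 1 and 85 of 100 changed by 2 on the log2 scale were recovered. No other genes were changed, a far smaller share than the 28.2% called in the data. The noise of each simulated library was drawn separately, whereas replicates 2 and 3 of both DOX groups lay close together. The share recovered may therefore differ in the data. Both sizes of change were in the same simulated fit, which held 20970 genes, fewer than the 22144 tested, and 3 unchanged genes were called in it. Promoters were searched for 7 motifs in all, of which CHR, E-box, M-box and the ETS core are reported. Figures were made with matplotlib 3.10.9.

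The members and gene lists were chosen with earlier results of these data known. Named genes were NR2F1 and NR2F2, the 10 largest protein-coding rises and falls, the 3 largest called changes each way per list, all members of the ERK, cell cycle entry, NR2F and pigmentation lists, the 5 smallest p-values of the difference with and without DOX, and list members called in only one condition. PLK1, CCNB2, CKS1B, MKI67, HSPD1, ASNS, PHGDH, CD74, MCL1, EGFR, FGFR3, LOX, CCN2, LDHA and NGFR were chosen after their values were seen. Some genes that the rule names are not reported here. Alternatives covered the pseudocount, the filter, scaling, weights, the trend, a replicate block and each library left out. Others were a fit of only the 6 libraries compared and, added after seeing the data, replicates 2 and 3 averaged.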

Additional observations from a re-analysis of the deposited data

How the results depend on the processing

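The 3335 genes higher and 2917 lower with DOX became 5202 and 4460 with array weights, and 1664 and 1497 with replicates 2 and 3 of both DOX groups averaged, an alternative chosen after seeing the data. Leaving out 1 library at a time gave 2479 to 3390 higher and 2190 to 3048 lower genes, and 0 to 57 genes in the test of the difference between the responses with and without DOX, where array weights gave 20. With a replicate block, 3882 genes were higher, 3485 lower and 0 passed the test of the difference. Replicate numbers were shared by DMSO + DOX and BRAFi + MEKi + DOX, but deviations from the group means correlated at 0.157, 0.0777 and 0.0591 for numbers 1, 2 and 3 over all genes and at 0.275, 0.179 and 0.117 over the genes averaging 30 or more, and 5 of the 6 libraries correlated best with their own number over all genes, and 3 of the 6 over the genes averaging 30 or more. Between DMSO and BRAFi + MEKi without DOX, the same correlations were 0.155, 0.178 and 0.083 over all genes. Over the genes averaging 30 or more they were 0.299, 0.410 and 0.165. In this comparison each library correlated best with its own number in both sets of genes. In both comparisons all pairs with the same number were over 0.1 over the genes averaging 30 or more. As not all were over all genes, and no source says what a number marks, the unblocked fit was kept. This pairing is a hint from the data. The replicate block added calls for 34 of the named genes and removed none, 13 of the added being DNA replication genes, of which 34 of 40 were then lower in place of 21.

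Of 225 called genes among the 330 named, to which NGFR does not belong, 155 kept their call in every alternative. With replicates 2 and 3 averaged 65 lost it, and without 1 library of the compared groups 12 (BRAFi + MEKi + DOX replicate 1) to 38 (BRAFi + MEKi + DOX replicate 2) did. The number of libraries per group and the unknown depth limit the precision of low genes.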

Other observations

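Several further gene lists were described by the same counts. Of 27 genes of the WNT pathway, 3 rose and 8 fell with BRAFi + MEKi + DOX, against 15.1% and 13.2% of all genes, with a median log2 fold change of -0.40 against 0.12 for all genes. WNT7B, a WNT ligand gene, was 1757, 1973 and 2084 with DMSO + DOX and 126, 139 and 116 with BRAFi + MEKi + DOX, and its log2 fold change was -3.92 (standard error 0.22, adjusted p = 9.1e-08). The receptor gene FZD1 fell by 2.43 (standard error 0.18, adjusted p = 1.1e-06) and the secreted inhibitor gene SFRP1 fell by 1.76 (standard error 0.25, adjusted p = 0.00019). DKK3, of the Dickkopf family, rose by 1.86 (standard error 0.17, adjusted p = 6.9e-06) and AXIN2, a feedback inhibitor that serves as a readout of the pathway, by 1.00 (standard error 0.21, adjusted p = 0.0032). Without BRAFi + MEKi + DOX replicate 1, 3 WNT genes were higher and 12 lower, and with replicates 2 and 3 averaged 2 and 6.

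Of the 13 mRNAs encoded by mitochondrial DNA, 0 rose and 8 fell, with a median of -0.83. MT-CO2, a subunit of cytochrome c oxidase, was 109510.0, 114797 and 128253 with DMSO + DOX and 29340.2, 57965 and 51548 with BRAFi + MEKi + DOX, a log2 fold change of -1.40 (standard error 0.26, adjusted p = 0.0013). Of 33 nuclear genes of the respiratory chain and its regulators, 1 rose and 9 fell, with a median of -0.39. NDUFB8, a subunit of complex I, fell by 1.50 (standard error 0.14, adjusted p = 6.3e-06) and CYCS, the cytochrome c gene, fell by 0.83 (standard error 0.18, adjusted p = 0.0037), while COX5B rose by 0.41 (standard error 0.15, adjusted p = 0.047), a call lost in 14 alternatives. Of 26 chaperones and genes of the unfolded protein response, 0 rose and 7 fell, with a median of -0.25. EDEM1, which clears misfolded glycoproteins, fell by 1.17 (standard error 0.15, adjusted p = 8.9e-05) and the disulfide isomerase gene PDIA6 fell by 1.06 (standard error 0.22, adjusted p = 0.0027). Without BRAFi + MEKi + DOX replicate 1, 7 of the mitochondrially encoded mRNAs, 9 of the respiratory chain genes and 8 of the chaperone genes were lower. With replicates 2 and 3 averaged these numbers were 7, 5 and 2, and with the replicate block 19 of the respiratory chain genes were lower.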
